A study of Bombus terrestris with 70 samples.

Results

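The 100 genes described here were the most abundant genes shared by 3 tissues of Bombus terrestris queens (brain, fat body and ovary), out of 10230 genes that had a row in all 3 deposited expression tables. They were chosen by level: each value was multiplied by 1000000 and divided by the total of its library (ppm), the ppm were averaged over the 6 control libraries of the first time point in each tissue, and the 100 genes with the largest value in their lowest tissue were kept. The choice therefore used the control libraries of the first time point, and every statement on those libraries below is a description with no test. Messenger RNA had been sequenced from 1 tissue of a single queen per library. Control queens (C) had their eggs taken away and put back, so that they met the same disturbance, and egg removal queens (R) had their eggs taken away. Queens were sampled when 10% of their cohort had died (TP1) or when 60% had died (TP2). No genotype or strain was given, and both treatments involved handling of the eggs. The brain had 6 control and 6 egg removal libraries at TP1 and 5 of each at TP2, the fat body had 6 and 6 at TP1 and 4 control and 6 egg removal libraries at TP2, and the ovary had 6 libraries in each of its 4 groups.

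Genes with much messenger RNA in every tissue of an insect commonly encode parts of the ribosome, elongation factors, the cytoskeleton, chaperones and enzymes of mitochondrial energy supply. The fat body stores nutrients and secretes proteins into the haemolymph, among them the yolk proteins that growing oocytes in the ovary take up, and the brain holds neurons and glia. The RefSeq gene table of the assembly iyBomTerr1.2 matched all 100 genes by symbol and annotated all of them as protein coding, but gave no product names, so the genes are called by their symbols and no role is assigned to them. Only npve had a symbol other than LOC and a number. The product of the bee gene npve is not given in the sources used here. Among the 100 genes, 2 pairs were neighbours in the reference annotation, LOC105666120 with LOC100648350 and LOC100645201 with LOC100645451. Which of them share reads with a close paralogue is unknown. Levels are read counts on a normalised or a ppm scale and are not divided by transcript length, so the order of genes by level is not an order by number of molecules.

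Each tissue had its own table of normalised read counts, called values as given below, and tables had been normalised separately, so levels were set side by side across tissues only as ppm and all tests stayed within a tissue. Estimated depth was 24.1 to 56.0 M reads (1 M is 1000000) per brain library, 12.1 to 60.2 M per fat body library and 19.6 to 68.0 M per ovary library. Of the marker genes listed for each tissue, 0 of 19 for the brain, 0 of 13 for the ovary and 2 of 10 for the fat body could be matched by symbol. The tissue labels could thus be checked only with Def, the antimicrobial peptide defensin, and with LOC100650436. Def stood at 343 to 30363 ppm in fat body libraries, 4.42 to 2075 ppm in brain and 0.149 to 1108 ppm in ovary. LOC100650436 took 0.0473% to 27.4% of fat body libraries, 0.00138% to 1.5% of brain libraries and 0.000112% to 0.0176% of ovary libraries. Def alone did not tell every fat body library from brain or ovary, nor did LOC100650436 alone from brain. Fat body control TP2 replicates 1, 2 and 3 held 0.0473%, 0.157% and 0.129% of LOC100650436, within the brain range. Their Def, at 18772, 30363 and 23508 ppm, lay above that of every brain library. LOC100644055, which is not one of the 100 genes, took up to 23.3% of a brain library. The 6 control TP2 libraries of the ovary stood apart, with a median correlation to the other ovary libraries of 0.760 to 0.942, against 0.958 or more for every other ovary library.

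In control queens at TP1 the 100 genes spanned more than an order of magnitude within each tissue. Their median level was 960 ppm in the fat body, 683 ppm in the ovary and 681 ppm in the brain. The fat body held the highest level of 48 of them, the ovary that of 29 and the brain that of 23. The level in the highest tissue was a median of 2.55 times that in the lowest, with 31 genes under a ratio of 2 and 9 genes over a ratio of 5. LOC100649277 varied least between tissues, at 449 ppm ± 56.7 (SD, n = 6) in brain, 449 ppm ± 125 in fat body and 424 ppm ± 34.1 in ovary. LOC100643137 was next, at 514 ppm ± 59.8, 439 ppm ± 70.5 and 524 ppm ± 66.1 in the same order. LOC100647892 varied most, at 13873 ppm ± 2604 in the brain, the highest mean of any of the 100 genes there, against 538 ppm ± 161 in the fat body and 596 ppm ± 161 in the ovary. LOC100647589 led the ovary at 10535 ppm ± 1421 and stood at 481 ppm ± 43.8 in the brain and 853 ppm ± 191 in the fat body. LOC100650230 led the fat body at 8790 ppm ± 1915, with 3722 ppm ± 489 in the brain and 865 ppm ± 129 in the ovary.

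Ranked by the lowest tissue, LOC100631084 came first, at 3572 ppm ± 446 (SD, n = 6) in brain, 5053 ppm ± 841 in fat body and 3752 ppm ± 508 in ovary. LOC100645451 followed with 2780 ppm ± 540, 5144 ppm ± 1538 and 8002 ppm ± 827. LOC105666160 was nearly even across tissues, at 2598 ppm ± 294, 2161 ppm ± 252 and 2653 ppm ± 286. LOC100642807 leaned to the brain, with 7085 ppm ± 670 there against 1993 ppm ± 305 in the fat body and 2065 ppm ± 320 in the ovary. LOC100648000 had 1927 ppm ± 321, 2635 ppm ± 591 and 2666 ppm ± 339, and LOC100647296 had 3391 ppm ± 664, 2882 ppm ± 445 and 1906 ppm ± 250. At the other end the choice fell between close values. The last 2 genes inside were LOC105667204, whose lowest mean was 359 ppm in the fat body, and LOC100648890, whose lowest was 358 ppm in the brain, and the first 2 outside were LOC100649244 and LOC100643743, whose lowest means were 355 and 353 ppm, both in the brain.

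**Figure D1:**
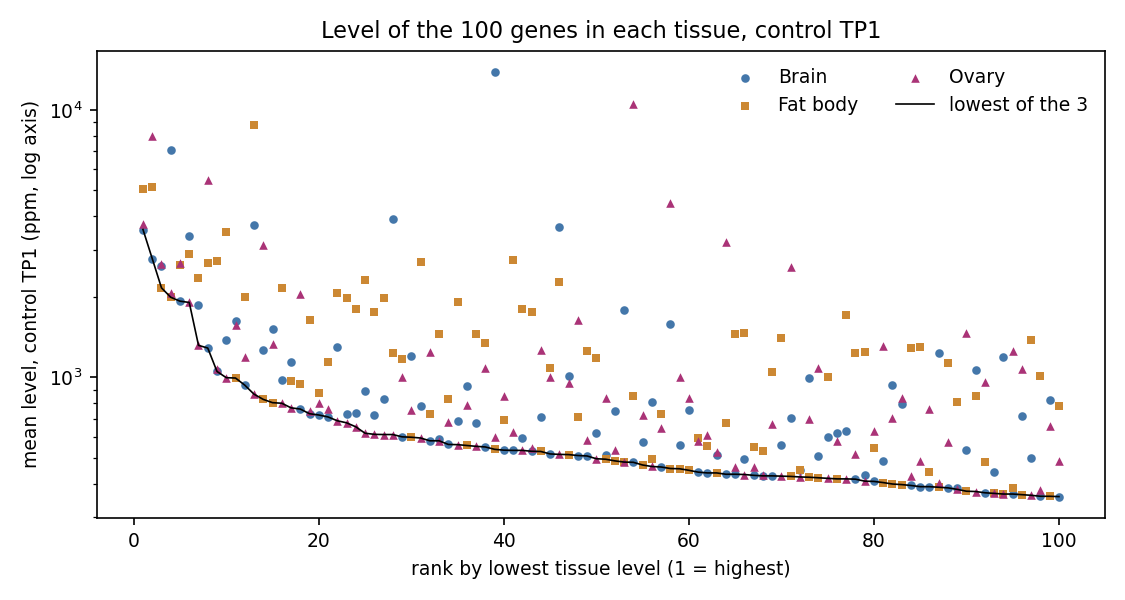
Mean level (ppm, log axis) of each of the 100 genes in the 6 control TP1 libraries of each tissue, ordered by the level in the lowest tissue, which the line joins. The line falls from 3572 ppm to 358 ppm, and a few genes stand far above it in 1 tissue, such as LOC100647892 at 13873 ppm in the brain and LOC100647589 at 10535 ppm in the ovary.

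The set chosen from other groups overlapped with this one in part. The same rule applied to egg removal TP1 libraries gave 84 of the 100 genes, to control TP2 libraries 73 and to egg removal TP2 libraries 89. All 3 of these choices held 63 of the 100 genes, and 3 of the 100 were in none of them. The lowest mean that the chosen genes had in control TP1, 358 ppm, was reached in every tissue by 64 of them in egg removal TP1, by 91 in control TP2 and by 81 in egg removal TP2. Values as given in place of ppm chose 81 of the 100 genes.

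Together the 100 genes held 5.72% to 15.7% of a library, and at TP2 this share was lower on average in egg removal than in control in each tissue. The control TP1 shares hold the values used to choose the genes and are given as a description. In the brain the share was 11.2% ± 1.45 (SD, n = 6) in control TP1, 9.17% ± 2.63 (n = 6) in egg removal TP1, 13.0% ± 1.31 (n = 5) in control TP2 and 9.70% ± 1.69 (n = 5) in egg removal TP2. The 5 control TP2 brains held 12.8%, 11.6%, 15.0%, 12.3% and 13.3%, and the 5 egg removal TP2 brains 9.97%, 12.2%, 7.60%, 8.84% and 9.90%. The groups overlapped only through the second egg removal library, which was also the only one of these 5 in which LOC100644055 was not the most abundant gene: it took 0.0158% there, 7.58% to 15.4% in the other 4, and 0.0182% to 0.312% in control TP2 brains. As given, the summed values were 4.76 M ± 0.556 in control TP2 and 4.35 M ± 0.117 in egg removal TP2, and the range of 4.14 to 5.66 M in control enclosed the range of 4.20 to 4.53 M in egg removal. The part of LOC100644055 in the difference between the scales was not tested.

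In the fat body the share was 12.8% ± 1.55 (SD, n = 6) in control TP1, 9.38% ± 0.703 (n = 6) in egg removal TP1, 13.9% ± 0.949 (n = 4) in control TP2 and 11.7% ± 1.34 (n = 6) in egg removal TP2. The 4 control TP2 libraries held 15.1%, 12.9%, 14% and 13.5%, while egg removal TP2 ran from 10.5% through a median of 11.1% to 13.5%. Summed values as given had a different order, at 3.68 M ± 0.483 in control TP1, 4.51 M ± 0.414 in egg removal TP1, and means of 4.15 M in both TP2 groups (SD 1.08 in control and 0.545 in egg removal). LOC100650436, not one of the 100 genes, took 2.74% to 16.1% of control TP1 fat body libraries, 15.7% to 27.4% in egg removal TP1, 0.0473% to 4.73% in control TP2 and 7.06% to 18.9% in egg removal TP2. With the most abundant gene of each library left out, the shares were 14.4%, 12.1%, 14.5% and 13.4% in the same order of groups. The gene left out was LOC100650436 except in 1 control TP1 and 3 control TP2 libraries, which were led by other genes.

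In the ovary the share was 11.6% ± 1.11 (SD, n = 6) in control TP1, 10.5% ± 0.273 in egg removal TP1, 13.7% ± 1.57 in control TP2 and 11.3% ± 1.08 in egg removal TP2. At TP2 the control libraries ran from 11.5% through a median of 13.6% to 15.7%, and the egg removal libraries from 10.4% through 11.0% to 13.3%, so the groups overlapped. As given, the sums were 5.86 M ± 0.521, 5.38 M ± 0.175, 7.24 M ± 1.68 and 5.56 M ± 0.316 in the same order of groups. On this scale all of control TP2 stood at 6.00 to 9.45 M and egg removal TP2 at 5.34 to 6.16 M. Replicates 1 and 4 of control TP2 held 9.34 and 9.45 M. The other control TP2 libraries held 6.00 to 6.40 M, within the control TP1 range of 5.03 to 6.59 M. Replicates 1 and 4 also had the lowest estimated depth in the ovary (19.6 and 23.7 M reads). Their median correlations to the other ovary libraries were the lowest too (0.784 and 0.760). Both scales placed the mean of control TP2 highest in the ovary, with these replicates included.

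**Figure D2:**
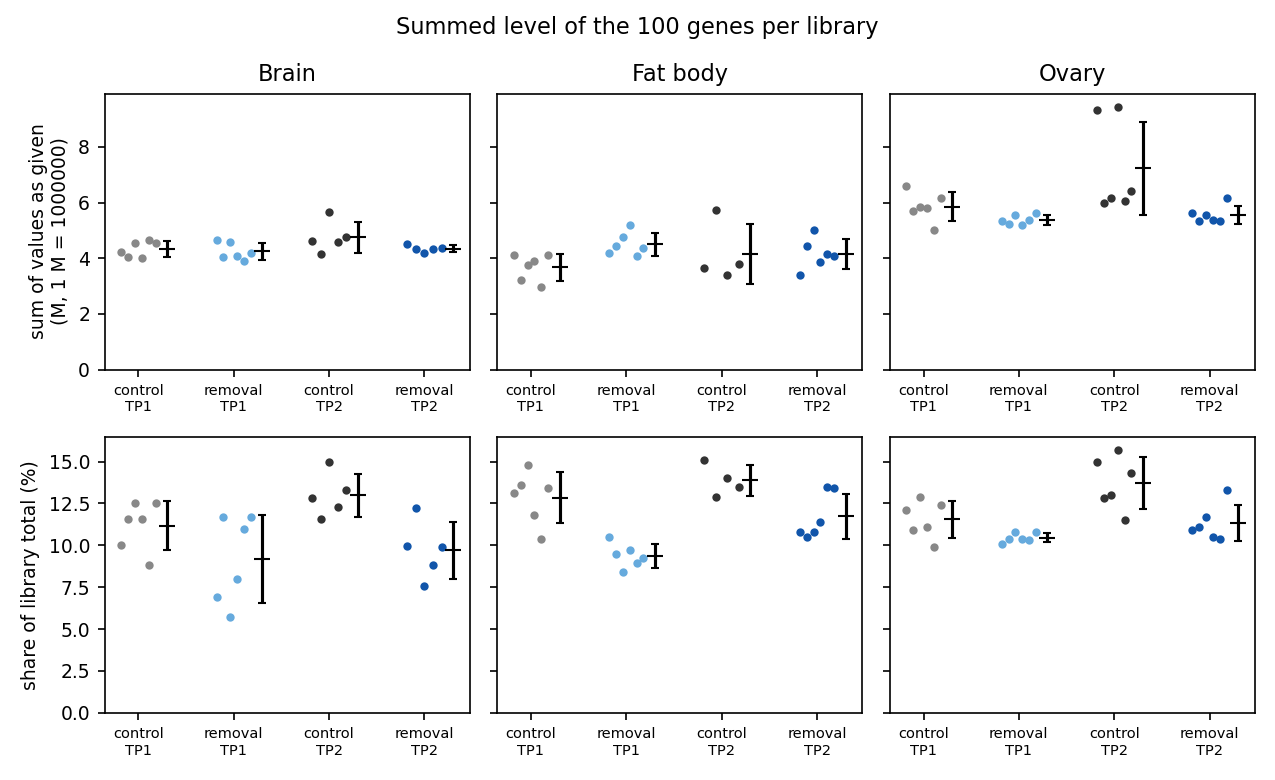
Summed level of the 100 genes in each library, by tissue and group, as the sum of values as given (upper row, M) and as a share of the library total (lower row, percent). Points are libraries and bars the mean and SD. In the ovary the mean of control TP2 is highest on both scales (7.24 M and 13.7%). As given, replicates 1 and 4 of that group (9.34 and 9.45 M) stand above its other libraries. In the fat body the mean of egg removal TP1 is highest as given (4.51 M) and lowest as a share (9.38%).

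Egg removal was compared with control at TP2, in 2 groups that the choice of genes had not used. The spread behind each p came from all 4 groups, so the control TP1 libraries entered the tests in that way. With only the 2 compared groups in the fit, 6 brain, 0 fat body and 54 ovary genes of the 100 were called. Of all genes, 5.18%, 0% and 42.9% were then called. In the ovary most of the 100 genes differed in the main fit, on all 4 groups. At an adjusted p under 0.05 over all 10401 genes tested (limma, Benjamini-Hochberg), 19 were higher and 58 lower in egg removal than in control, and 23 were not called. Among all tested genes 28.9% were called higher and 30.0% lower, so the share called higher lay below the background and the share called lower lay above it. The median log2 difference was -0.615 over the 100 genes and -0.043 over all genes. On the ppm scale 20 were higher and 56 lower, beside 29.7% and 27.9% of all genes, with medians of -0.541 and 0.027.

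LOC100643137 was among the ovarian genes called lower in egg removal than in control. As given, its 6 control TP2 libraries had a lowest value of 41702, a median of 63718 and a highest of 162169, and its egg removal TP2 libraries 21426, 24723 and 32327. The groups did not overlap, and the egg removal values lay close to those of both TP1 groups, which together spanned 21087 to 31881. The log2 difference was -1.58 (SE 0.24, adjusted p = 3.83e-05), or 3.00-fold lower. LOC100643798 had 48200, 69353 and 150720 in control TP2 against 18435, 27748 and 38604 in egg removal TP2, again with no overlap, a log2 difference of -1.47 (SE 0.23, adjusted p = 5.90e-05). The largest difference in this direction among the 100 genes was that of LOC100650108. It had 30751, 71392 and 246120 in control against 10795, 23159 and 28648 in egg removal (log2 -2.0, SE 0.37, adjusted p = 0.000176). Its control libraries were spread over a range that was wide beside that of egg removal, as were those of LOC100643137.

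LOC100645524 rose most. In control TP2 ovaries it had a lowest value of 30186, a median of 61373 and a highest of 181222, and in egg removal TP2 199251, 226549 and 263787. The groups did not overlap, and the log2 difference was 1.88 (SE 0.31, adjusted p = 7.74e-05), or 3.68-fold. Its TP1 values spanned 170075 to 317711 in control and 194382 to 291614 in egg removal, so the control TP2 libraries were the low ones, apart from 1 library inside the TP1 range. LOC100645708 had 26066, 39718 and 69579 in control TP2 against 71866, 75402 and 81580 in egg removal TP2, with no overlap (log2 0.93, SE 0.17, adjusted p = 0.000144). The calls on LOC100643137, LOC100643798, LOC100645524 and LOC100645708 in the ovary held under all 20 alternative settings.

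Of the 6 genes ranked first by abundance, 4 were called lower in egg removal than in control ovaries at TP2. This stands beside 58 of the 100 genes and 30.0% of all genes tested, and 6 genes are too few to set apart from the 100. On the log2 scale LOC100642807 differed by -1.14 (SE 0.27, adjusted p = 0.00142), LOC100647296 by -0.80 (SE 0.21, adjusted p = 0.00304), LOC100631084 by -0.53 (SE 0.17, adjusted p = 0.0116) and LOC105666160 by -0.50 (SE 0.18, adjusted p = 0.0234). LOC100648000, at -0.31 (SE 0.15, adjusted p = 0.0727), did not pass the test, nor did LOC100645451, at 0.35 (SE 0.15), whose adjusted p lay just above the threshold of 0.05. LOC100631084, first by abundance, had 165904, 275973 and 467895 in control TP2 and 179729, 198133 and 222175 in egg removal TP2, and those groups overlapped. LOC100642807, LOC100647296, LOC100631084 and LOC105666160 were higher in control ovaries at TP2 than at TP1, by 1.23, 0.83, 0.60 and 0.40 as given (not tested). In egg removal ovaries 0 of the 100 genes were called between time points, beside 0% of all 10401 genes tested, so this count is not particular to the 100 genes.

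The direction in the ovary went with the tissue in which a gene was most abundant in control TP1. Of the 48 genes highest in the fat body, 3 passed the test as higher and 40 as lower in egg removal ovaries at TP2, with a median log2 difference of -0.93. Of the 23 highest in the brain, 2 were higher and 14 lower, with a median of -0.62. Of the 29 highest in the ovary, 14 were higher and 4 lower, with a median of 0.32. The same division of all tested genes gave the same order: 5.65% higher and 58.8% lower with a median of -1.03 for genes highest in the fat body, 9.52% and 46.1% with -0.52 for the brain, and 53.8% and 7.28% with 0.49 for the ovary. Genes highest in the fat body made up 48 of the 100 genes. Among the tested genes that were in all 3 tables, 1574 were highest in the fat body, 3972 in the brain and 4673 in the ovary.

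**Figure D3:**
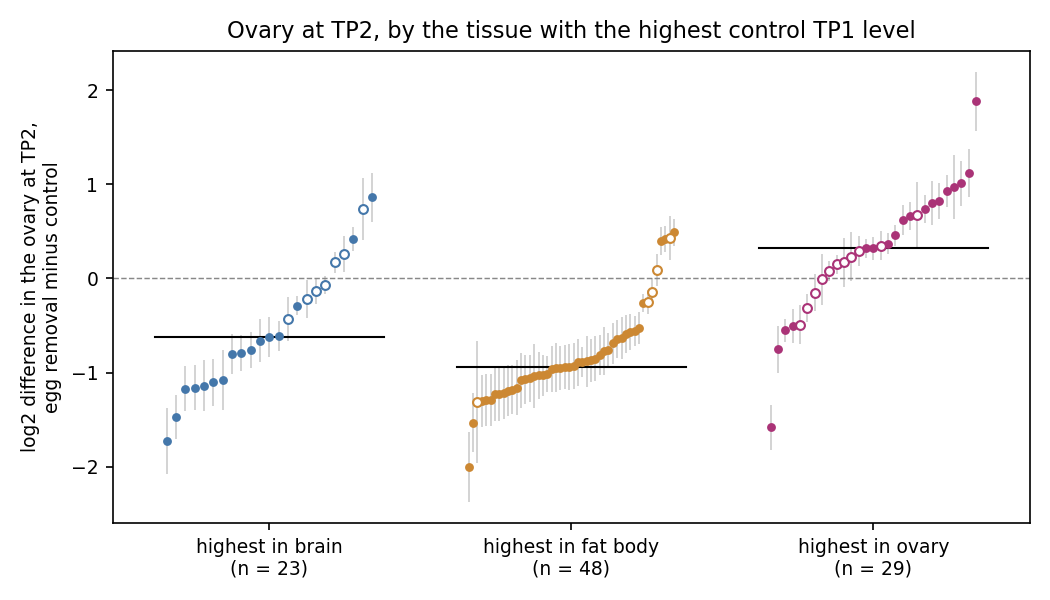
Log2 difference between egg removal and control ovaries at TP2 for each of the 100 genes, grouped by the tissue with the highest control TP1 level and ordered within each group. Points are limma estimates on values as given with SE, filled where the adjusted p was under 0.05, and lines are medians: -0.62 for the 23 brain genes, -0.93 for the 48 fat body genes and 0.32 for the 29 ovary genes.

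In bulk tissue, fewer cells of a type and less RNA per cell cannot be told apart. Of the 2 fat body markers that could be matched, Def stood at 26.4 to 1108 ppm in control TP2 ovaries (mean 302, median 115) and at 1.45 to 52.9 ppm in egg removal TP2 ovaries (mean 14.3, median 4.06). LOC100650436 took 0.000112% to 0.00676% of control TP2 ovary libraries and 0.000668% to 0.00775% of egg removal ones. At TP2 Def also had a higher mean in control than in egg removal brains, at 816 and 118 ppm. In the fat body its means were 18984 and 4614 ppm. LOC100650436 took a mean of 1.27% of control and 12.7% of egg removal fat body libraries at TP2. Both markers thus differed between treatments in the fat body itself, so their ovarian levels cannot measure fat body tissue. The part of other tissue in the ovarian differences was not tested. Without the 2 ovary libraries least like the others, 60 of the 100 genes were called, 19 of them higher, beside 44.9% of all genes called in either direction.

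In the brain few of the 100 genes differed at TP2. In egg removal, 1 was called higher and 7 lower, beside 3.68% and 4.89% of the 10388 genes tested, and the medians were -0.115 for the 100 genes and 0.002 for all. On the ppm scale 0 were higher and 3 lower, beside 0.173% and 2.59% of all genes, while the ppm scale moved the median of all genes to -0.304 and that of the 100 to -0.424. The counts as given are thus near the background in both directions.

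LOC100650108 showed the largest brain difference among those called. Its 5 control TP2 libraries had values of 48972, 45703, 31424, 51125 and 48100, and its 5 egg removal TP2 libraries 18313, 19169, 15912, 16027 and 24685. Every control library was above every egg removal library, and the log2 difference was -1.26 (SE 0.21, adjusted p = 0.00104), or 2.39-fold lower. As ppm it was -1.57 (SE 0.23, adjusted p = 0.000297). LOC100643137 was lower by less but with little spread, at 22328, 23607, 25319, 24763 and 27126 in control against 19143, 19104, 18086, 20034 and 19655 in egg removal. These groups did not overlap either (log2 -0.36, SE 0.06, adjusted p = 0.00122), though on the ppm scale the difference of -0.67 had an SE of 0.23 and an adjusted p of 0.109, within a range of 0.000252 to 0.250 over all alternatives.

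The single brain gene called higher was LOC100645715, with 26329, 27817, 32010, 23563 and 24568 in control TP2 and 32540, 33432, 34377, 33757 and 30567 in egg removal TP2. The groups overlapped through 1 library of each. Its log2 difference was 0.30 (SE 0.085, adjusted p = 0.0309) as given and -0.01 (SE 0.25, adjusted p = 0.983) as ppm, so its direction depended on the scale, and its adjusted p over all alternatives ran from 0.00167 to 0.983. Leaving out control TP2 replicate 1, 4 or 6 or egg removal TP2 replicate 1, 2, 3 or 4 also ended that call, with differences of 0.26 to 0.31. The count of 8 brain genes called became 15 and 14 on leaving out control TP2 replicate 2 and 3, beside 6.01% and 16.9% of all genes. It became 3 and 5 on leaving out egg removal TP2 replicate 3 and 4, beside 4.85% and 5.30%. Without the brain libraries led by LOC100644055, none was called, beside 0.0867% of all genes, and LOC100650108 differed by -1.21 (adjusted p = 0.127, limma). That fit has 1 egg removal TP2 library, which is assumed to vary like the other groups.

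In the fat body at TP2, 3 of the 100 genes were higher and 3 lower in egg removal, beside 2.31% and 2.29% of the 10383 genes tested, which is near the background. The medians were -0.079 for the 100 genes and -0.002 for all genes. As ppm, 1 was higher and 4 lower, beside 0.693% and 2.92%, with medians of -0.35 and -0.266.

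LOC100647892, the gene with the highest brain level, was lower in the fat body. Its 4 control TP2 libraries had 41945, 31580, 26265 and 25716, and the 6 egg removal TP2 libraries had a lowest value of 3407, a median of 9522 and a highest of 21743. The groups did not overlap (log2 -1.79, SE 0.40, adjusted p = 0.0203), a 3.46-fold lower level. In control TP1 it had 9592, 14131 and 23834, and in egg removal TP1 5335, 5941 and 17629. LOC100646626 was higher in egg removal TP2, with 5495, 8150, 8278 and 9959 in control against 12514, 13548 and 17029 in egg removal and no overlap (log2 0.85, SE 0.17, adjusted p = 0.0111), or 1.80-fold. LOC100646360 was also higher, with 6396, 12853, 10027 and 14884 against 15577, 18405 and 34494 (log2 0.97, SE 0.24, adjusted p = 0.0266). For LOC100646360 the groups lay next to each other without overlap.

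The fat body calls rested on few control libraries. Without control TP2 replicate 1, none of the 100 genes was called, beside 0.116% of all genes, and LOC100647892, LOC100646626 and LOC100646360 then differed by -1.64, 0.68 and 0.73. That library had the lowest estimated depth in the fat body (12.1 M reads) and the lowest median correlation to the other fat body libraries (0.928). The call on LOC100646360 was also lost on leaving out control TP2 replicate 3 (0.95), egg removal TP2 replicate 2 (0.89) or egg removal TP2 replicate 3 (0.83). The count of 6 became 2 on leaving out control TP2 replicate 3 and 11 on leaving out its replicate 5, beside 1.20% and 13.2% of all genes. It became 2 on leaving out egg removal TP2 replicate 3, beside 1.79%, and 3 on leaving out its replicate 1, 2 or 4, beside 2.63%, 2.84% and 1.95%. The call on LOC100646626 was lost on the ppm scale, at 0.58 (SE 0.19, adjusted p = 0.0826), within 0.00194 to 0.126 over all alternatives.

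Across the 3 tissues at TP2, 21 of the 100 genes were called in no tissue, 68 in 1, 10 in 2 and 1 in all 3. Of the 10175 genes tested in all 3 tissues, 35.8% were called in none, 56.1% in 1, 7.48% in 2 and 0.609% in all 3. The gene called in all 3 was LOC100643137, lower in egg removal each time. In the fat body its 4 control TP2 libraries had 22244, 30990, 22774 and 16749, and its egg removal TP2 libraries a lowest value of 10388, a median of 14855 and a highest of 17405. Here the groups overlapped through the lowest control library (log2 -0.70, SE 0.18, adjusted p = 0.0312). That call was lost without control TP2 replicate 1 (-0.71), 2 (-0.55) or 3 (-0.70), and likewise on leaving out replicate 1 (-0.64), 3 (-0.71) or 4 (-0.62) of egg removal TP2. The difference in size of LOC100643137 between tissues, from -0.36 in the brain to -1.58 in the ovary, was not tested, since the tables had been normalised separately.

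**Figure D4:**
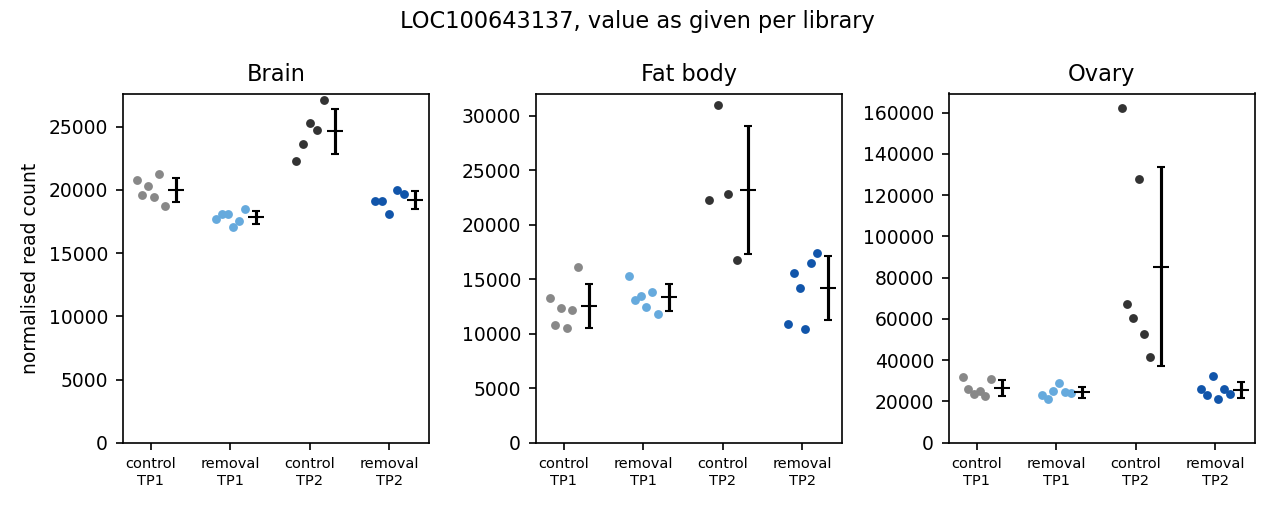
Normalised read count (values as given) of LOC100643137 in every library of the 3 tissues, by group, with the mean and SD beside the points. Control TP2 has the highest mean in each tissue, at 24629 in brain, 23189 in fat body and 85372 in ovary; the axes differ between tissues.

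Of the 11 genes called in more than 1 tissue, 10 went in 1 direction, beside 79.7% of the 823 genes so called among all genes tested, and 1 went in opposite directions. LOC100646626 was higher in egg removal fat body and lower in egg removal ovary at TP2. In the ovary it had 25987, 32254 and 38709 in control against 24812, 25570 and 27255 in egg removal, with overlap (log2 -0.29, SE 0.10, adjusted p = 0.0213). The ovarian difference as ppm was -0.21 (SE 0.12, adjusted p = 0.144). LOC100647296, LOC100650108, LOC100646005, LOC100651434 and LOC100649410 were lower in both brain and ovary. As ppm the brain call was lost for LOC100647296 (adjusted p = 0.174), LOC100646005 (0.0820) and LOC100649410 (0.129). LOC100645715 was higher in both on values as given. LOC100647892 was lower in fat body and ovary, and LOC100646360 and LOC100647486 were higher in both, though the fat body call on LOC100647486 was lost as ppm (adjusted p = 0.0983). Genes called in 2 tissues were listed after their values were seen, except those that the rule for named genes had picked.

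The second comparison between groups that the choice had not used was TP2 against TP1 within egg removal, again with a spread from all 4 groups. It shares the egg removal TP2 libraries with the comparison above. In the brain 0 of the 100 genes were called higher and 0 lower, beside 0.0481% and 0% of all genes. At an unadjusted p under 0.05 there were 2 of the 100 and 607 of all brain genes, and the smallest adjusted p among the 100 was 0.783 (limma). In the ovary 0 were called higher and 0 lower, beside 0% and 0% of all genes, with 0 of the 100 and 286 of all genes at an unadjusted p under 0.05. A weight per library gave 2 calls among the 100 in the ovary and 0 in the brain, beside 2.18% and 0.443% of all genes. The median log2 differences were 0.061 in the brain and 0.068 in the ovary, against -0.004 and -0.008 for all genes.

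In the fat body 1 of the 100 genes was higher and 6 were lower at TP2 than at TP1 within egg removal, beside 2.56% and 3.43% of all genes. The medians were -0.026 and 0.038. The ppm scale gave a different split, with 32 higher and 3 lower beside 17.8% and 0.597% of all genes, and moved the median of all genes to 0.462 and that of the 100 to 0.416. The share of LOC100650436 in these libraries was 15.7% to 27.4% at TP1 and 7.06% to 18.9% at TP2, and its part in the split was not tested. As ppm the count called higher lay above the background, while the median lay below that of all genes.

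Genes with a fall in the egg removal fat body included LOC100652262, with a lowest value of 31876, a median of 42113 and a highest of 58229 at TP1 against 7635, 16972 and 58928 at TP2. The groups overlapped through 1 high TP2 library (log2 -1.32, SE 0.33, adjusted p = 0.0263). LOC100646360 had 29898, 38299 and 50744 at TP1 against 15577, 18405 and 34494 at TP2, with overlap (log2 -0.90, SE 0.21, adjusted p = 0.0216). LOC100648890 rose, from 10775, 12656 and 15561 to 16008, 18386 and 23808, with no overlap (log2 0.56, SE 0.16, adjusted p = 0.0411). The directions of LOC100652262, LOC100646360 and LOC100648890 were the same as ppm, at -0.87, -0.45 and 1.00, each with an adjusted p under 0.05. The gene npve had 33832, 89890 and 165390 at TP1 and 17592, 31876 and 78410 at TP2 (log2 -1.37, SE 0.35, adjusted p = 0.0280). The values of npve at the 2 time points overlapped.

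Single libraries decided several of these fat body calls. The count of 7 became 0 without egg removal TP1 replicate 2 or 3 or egg removal TP2 replicate 1 or 5, beside 1.17%, 0.732%, 1.02% and 0.510% of all genes. It became 4 and 3 without egg removal TP1 replicate 4 and 6, beside 4.68% and 3.56%. It became 11, 18, 3 and 2 without egg removal TP2 replicate 2, 3, 4 and 6, beside 8.77%, 14.3%, 2.88% and 3.38%. Without the 4 libraries that brought the count to 0, each in turn, LOC100646360 differed by -0.89, -0.82, -0.85 and -0.81 and LOC100652262 by -1.23, -1.24, -1.24 and -1.08. LOC100652262 also lost its call without egg removal TP2 replicate 6 (-1.17). LOC100648890 kept its direction but lost its call without any of 9 libraries, egg removal TP1 replicates 1, 2, 3, 5 and 6 and TP2 replicates 1, 4, 5 and 6, with differences of 0.49 to 0.61.

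Levels in the comparisons that involve control TP1 are given with no test. Between egg removal and control at TP1, the median log2 difference of the 100 genes was -0.022 in brain, 0.136 in fat body and -0.125 in ovary as given, beside 0.004, -0.089 and 0.005 for all genes. As ppm the medians were -0.315, -0.613 and -0.143, beside -0.286, -0.806 and -0.012. In the fat body the sign of the median therefore depended on the scale, while on both scales it was above that of all genes. Between TP2 and TP1 in control, the medians were 0.170, 0.059 and 0.494 as given, beside -0.008, -0.009 and 0.018 for all genes, and 0.266, 0.023 and 0.46 as ppm, beside 0.086, -0.043 and -0.012. The ovary of ageing control queens had the largest of these medians, and there 67 of the 100 genes had a higher mean log2 level at TP2 and 33 a lower one.

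Single genes in the egg removal fat body at TP1 were far from control TP1, in both directions. As given, 57 of the genes described here were higher in egg removal and 43 lower. As ppm, 22 were higher and 78 lower. LOC100652262 stood furthest above control, with a log2 difference of 1.98 as given and 1.23 as ppm. LOC100647892 stood furthest below control, at -1.06 as given and -1.81 as ppm. The gene npve had 33832, 89890 and 165390 in egg removal against 19201, 25628 and 31185 in control, a log2 difference of 1.81 as given and 1.06 as ppm. LOC100649277, the gene with the most even level across control tissues, had 26083, 42338 and 54470 against 8521, 12921 and 18608, a difference of 1.67 as given and 0.92 as ppm. LOC100645524 had 25259, 39632 and 53187 against 7093, 11367 and 26598, which overlapped by 1 control library, with 1.66 as given and 0.91 as ppm. As given, the ranges of npve and LOC100649277 did not overlap, which is a description only, since control TP1 served to choose the genes. The share of all genes without overlap is not given here. In the ovary at TP1, npve differed between egg removal and control by 0.08, LOC100649277 by 0.30 and LOC100645524 by 0.11 as given.

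**Figure D5:**
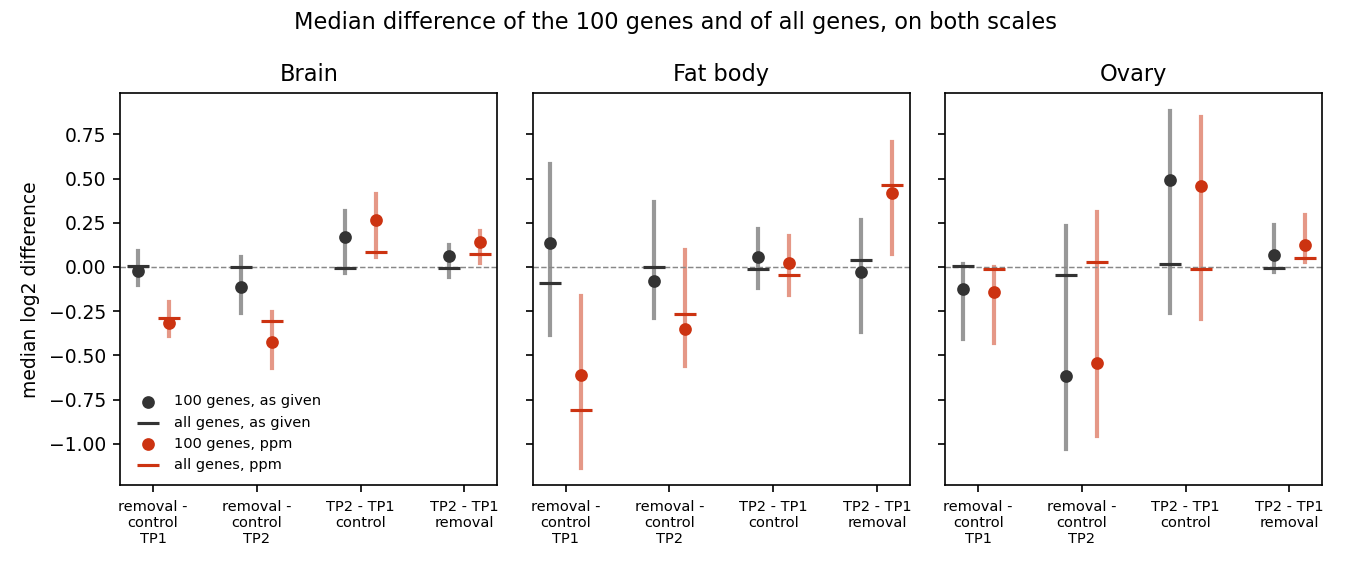
Median log2 difference of the 100 genes (points, with bars from the first to the third quartile) and of all genes tested (short lines) in 4 comparisons per tissue, for values as given and for ppm. In the ovary both scales place the 100 genes below all genes for egg removal against control at TP2 (-0.615 against -0.043 as given) and above them for TP2 against TP1 in control (0.494 against 0.018), while in the fat body the ppm points shift together with the lines.

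The spread within groups was compared with that of other genes on both scales. The pooled SD of log2 ppm over the 3 groups other than control TP1 had a median of 0.35 in brain, 0.376 in fat body and 0.393 in ovary, beside 0.384, 0.378 and 0.373 for all 10230 common genes. As given, the medians were 0.211, 0.328 and 0.404, beside 0.212, 0.438 and 0.457. Ranked by the mean of the 3 tissues' ppm SDs, LOC100645201 varied least, with SDs of 0.205, 0.185 and 0.128 in brain, fat body and ovary. Its group means were 587 to 676 ppm in brain, 1095 to 1168 ppm in fat body and 948 to 1140 ppm in ovary. LOC100648221 was next, with SDs of 0.245, 0.297 and 0.139. By the same mean LOC100647892 came highest, with 0.503, 0.829 and 0.635, followed by LOC100645783 with 0.372, 0.902 and 0.572. Other genes led single tissues, such as npve in the brain (0.668) and LOC100643777 in the ovary (1.17), and as given LOC100652140 had a higher mean than LOC100647892, with SDs of 0.369, 0.901 and 0.521. In the fat body LOC100645783 ran from 89.4 to 668 ppm among the 6 egg removal TP2 libraries alone.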

How the data were processed

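Libraries were stranded mRNA libraries, each from 1 tissue of a single queen, sequenced on 2 lanes, per the labels. The submitters' processing notes name kallisto 0.46.1, DESeq2 1.28.1 and R 4.0.1. Not given in the sources used here are the genome build, annotation and strand setting. The deposited signal values are normalised read counts from the authors, 1 table per tissue, with decimals. Whole reads could not be recovered from them, so the count test that the plan allowed for was not used. The labels list 70 samples and 68 had a column. Fat body control TP2 replicates 4 and 6 were not analysed here. All groups came from the labels, and replicates are different queens.

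Genes with a mean of at least 1 in at least 1 group were tested per tissue on log2 of the value plus 1 with limma 3.58.1 (R 4.3.3, statmod 1.5.0), using a group-means model and the trend and robust settings, so that all 4 groups share 1 spread. P-values were adjusted over all tested genes (Benjamini-Hochberg), and calls needed an adjusted p under 0.05. Fold changes are on this log2 scale. The ppm fit used the same genes. On simulated data for egg removal against control at TP2 the fit recovered 81% of changes of 1 on the log2 scale in brain (10388 genes), 61% in fat body (10383 genes) and 55% in ovary (10401 genes), and 94%, 89% and 85% of changes of 2. The simulation gave each gene the same spread in all 4 groups and changed only genes above a set mean level. Ovary control TP2 libraries had a wider spread than the other ovary groups, and recovery under unequal spread was not simulated. Depth was estimated as the library total over the value of 1 read, and no counting interval is given because the reads behind a value are unknown.

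The 100 genes, the rule for named genes and the lists were chosen with earlier results of these data known. The rule named the 6 most abundant members, up to 2 called members with the smallest p per direction, tissue and tested comparison, the 2 genes on each side of the limit, the extremes of spread and of the ratio between tissues, the highest member per tissue, and members with a symbol other than LOC and a number, 27 genes in all. LOC100644055, LOC100650436, and the other genes named among calls in several tissues were named after their values were seen. Lists of genes by role and sequence features needed product names and sequences, which were not used here. Alternatives were another pseudocount, no filter, ppm, only the groups compared, weights per library, a replicate block and leaving out each library.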

Additional observations from a re-analysis of the deposited data

Results flagged for a closer look

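In 39 combinations of a named gene, a tissue and a group of 4 to 6 libraries, 2 had a library whose gap to the nearest other exceeded Dixon's critical value, where chance alone gives about 1 in 20. LOC100650108 in control TP2 brains had 31424 in replicate 3, the low one of its 5 values as given, and that library still lay above every egg removal TP2 brain. LOC100652262 in egg removal TP2 fat bodies had 58928 in replicate 3, above the other 5 libraries, which ran from 7635 to 20855, and just above the highest egg removal TP1 value of 58229.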

How the results depend on the processing

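Another pseudocount or no filter moved none of the 6 counts of called genes by more than 1.5 times. Scaling every library to the same total gave 3 brain calls at TP2 in place of 8, beside 2.76% of all genes in place of 8.57%. It gave 35 fat body calls between time points in place of 7, beside 18.4% in place of 5.99%. It also turned LOC100645715 in the brain to -0.01. With only the 2 groups in the fit, the fat body counts were 0 and 0 in place of 6 and 7, and the ovary count 54 in place of 77, beside 0%, 1.68% and 42.9% of all genes. A weight per library gave 21 brain calls, 18 and 22 fat body calls, 88 ovary calls at TP2 and 2 ovary calls between time points, beside 22.4%, 18.6%, 20.6%, 71.3% and 2.18% of all genes. Leaving out 1 library at a time gave 3 to 15 brain calls at TP2, beside 4.85% to 16.9% of all genes. The fat body had 0 to 11 calls at TP2, beside 0.116% to 13.2%, and the ovary 74 to 83, beside 52.4% to 64.0%. Between time points in egg removal the fat body had 0 to 18, beside 0.510% to 14.3%. Brain and ovary kept 0 in that comparison, beside 0.0385% to 0.231% and 0%. Leaving out brain libraries led by LOC100644055, with 1 egg removal TP2 library assumed to vary like the other groups, gave 0 calls at TP2 and leaving out the 2 ovary libraries least like the others gave 60, both chosen after seeing the data, as were the sets chosen from other groups. Replicate numbers were not treated as pairs in the main fit. Correlations of deviations between libraries with the same number ran from -0.59 to 0.64, each from 1 pair of libraries. Libraries with unlike numbers were not compared, so these values cannot show whether the numbers mark pairs. With a replicate block the counts at TP2 were 10 for brain, 3 for fat body and 79 for ovary, beside 8.72%, 2.46% and 58.8% of all genes. Between time points they were 0, 5 and 0, beside 0.0481%, 5.61% and 0%. With this block the fat body calls on LOC100643137 (-0.69) and LOC100648890 (0.56) were lost. The rule with replicates left out by number, with medians, with all libraries and with a geometric mean over tissues gave 96 to 98, 95, 88 and 77 of the 100 genes. Members chosen by values as given held 10.2% of fat body egg removal TP1, 14.8% of fat body control TP2 and 9.37% of ovary egg removal TP1 libraries, beside 9.38%, 13.9% and 10.5%. A choice by level per protein length was not run, since no lengths were used here. The uneven spread between groups, with ovary control TP2 the widest, limits all tests that share 1 spread; causes of these changes were not tested.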
